A study of Mus musculus with 4 samples.

Results

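The 93 genes described here encode the respiratory chain and ATP synthase of the mitochondrial inner membrane, with their close relatives, out of 22225 protein-coding genes of the mouse mm9 annotation. They were taken by name: the nuclear genes whose symbols begin with Nduf, Uqcr, Cox4 to Cox8 or Atp5, the genes Sdha to Sdhd, Cyc1 and Cycs. The data were phospho-CREB ChIP-seq peak lists of MC3T3-E1 cells, a mouse calvarial pre-osteoblast line, made with an antibody to CREB phosphorylated at serine 133. Cells had been exposed for 1 h to 100 nM forskolin, a plant diterpene that raises cAMP through adenylyl cyclase, or for 1 h to the DMSO vehicle. Each treatment had 2 libraries that the labels call biological replicates, and the design compared phospho-CREB occupancy after forskolin with that after vehicle. All 4 libraries came from this 1 line, and the labels name no genetic change in either treatment.

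In oxidative phosphorylation (OXPHOS), complex I (the Nduf genes) and complex II (the Sdh genes) pass electrons to ubiquinone, complex III (the Uqcr genes and Cyc1) hands them to cytochrome c (Cycs), and complex IV (the Cox genes) reduces oxygen. The proton gradient built on the way drives ATP synthase, also called complex V (the Atp5 genes). CREB binds the cAMP response element (CRE), whose full form is TGACGTCA and whose core is TGACG, and it is phosphorylated at serine 133 by protein kinase A and other kinases. Cytochrome c is a textbook example of a respiratory gene with CREB sites in its promoter.

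The lists held 25566 and 19371 peaks in the forskolin libraries, against 14686 and 10180 in the vehicle libraries. Peaks sharing 1 bp or more across lists were merged into 28335 regions, of which 8930 were called in all 4 libraries, 5187 in both forskolin libraries and neither vehicle library (forskolin-only), and 125 in both vehicle libraries and neither forskolin library (vehicle-only). Every peak carries a score of the authors, which was used only to rank peaks within their own list, as a percentile where 100 is the highest score. Ranks of lists of different lengths show no change by themselves. Read depth is not given by peak lists, so an uncalled peak means that none was listed, not that no CREB was bound. Regions of any class lay within 10 kb of a transcription start site (TSS) of 7 of 7 pre-osteoblast marker genes (Runx2, Sp7, Alpl, Col1a1, Col1a2, Sparc and Dlx5), against 0 of 4 markers of skeletal muscle, 0 of 3 of blood cells, 1 of 4 of fat cells and 2 of 4 of cartilage. Over all coding genes the share was 55.2%. The marker lists were picked with results of these data known, so these counts are a description and no test of cell identity.

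Sequences under selected promoter regions are printed first, because the results below turn on them. Each is a window of 201 bases around a region's centre in build mm9, read on the gene's strand from 5′ to 3′, and capitals mark TGACG on either strand (CGTCA on the opposite one), extended to TGACGTCA where the full CRE is present. The first 6 are those of the 6 OXPHOS promoter regions of all 4 libraries that held a full CRE within 100 bp of the centre. They belong to the electron carrier Cycs, the complex I accessory subunits Ndufb2 and Ndufa10, the ATP synthase subunit Atp5d, the iron-sulphur subunit of succinate dehydrogenase Sdhb and the Rieske protein of complex III Uqcrfs1.
Cycs (mm9 chr6:50516556-50516756, minus strand): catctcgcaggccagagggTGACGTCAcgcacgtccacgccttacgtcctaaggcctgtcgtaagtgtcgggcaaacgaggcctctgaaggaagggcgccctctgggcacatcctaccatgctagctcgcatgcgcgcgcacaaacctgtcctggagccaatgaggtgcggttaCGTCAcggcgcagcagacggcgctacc
Ndufb2 (mm9 chr6:39542474-39542674, plus strand): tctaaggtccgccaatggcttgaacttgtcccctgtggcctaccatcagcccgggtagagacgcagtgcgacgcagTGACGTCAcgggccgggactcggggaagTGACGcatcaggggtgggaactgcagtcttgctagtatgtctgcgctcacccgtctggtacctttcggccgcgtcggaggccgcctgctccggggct
Ndufa10 (mm9 chr1:94370292-94370492, minus strand): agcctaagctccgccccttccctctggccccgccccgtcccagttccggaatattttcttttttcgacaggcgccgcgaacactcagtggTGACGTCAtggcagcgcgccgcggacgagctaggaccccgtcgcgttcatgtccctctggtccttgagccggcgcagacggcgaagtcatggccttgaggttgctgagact
Atp5d (mm9 chr10:79604046-79604246, plus strand): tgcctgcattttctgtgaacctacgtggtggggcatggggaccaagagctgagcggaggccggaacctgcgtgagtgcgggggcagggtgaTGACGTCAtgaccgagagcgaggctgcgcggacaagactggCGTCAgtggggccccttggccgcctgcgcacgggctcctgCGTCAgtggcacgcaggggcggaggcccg
Sdhb (mm9 chr4:140517219-140517419, plus strand): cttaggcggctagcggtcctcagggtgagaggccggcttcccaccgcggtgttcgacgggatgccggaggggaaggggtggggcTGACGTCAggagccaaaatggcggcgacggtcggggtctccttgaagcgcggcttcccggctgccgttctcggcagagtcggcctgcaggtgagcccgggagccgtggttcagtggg
Uqcrfs1 (mm9 chr13:30637099-30637299, minus strand): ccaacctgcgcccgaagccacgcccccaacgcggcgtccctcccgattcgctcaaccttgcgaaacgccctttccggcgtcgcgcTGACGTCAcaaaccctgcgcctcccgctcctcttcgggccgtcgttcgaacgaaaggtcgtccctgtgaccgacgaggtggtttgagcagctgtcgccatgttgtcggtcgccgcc
The next 3 come from the highest-ranked promoter regions without a full CRE that are discussed below. Ndufb5, a complex I accessory subunit, and Cox8a, the widely expressed subunit 8 of complex IV, each had 1 core, and Atp5g1, which encodes the membrane c subunit of ATP synthase, had none.
Ndufb5 (mm9 chr3:32635673-32635873, plus strand): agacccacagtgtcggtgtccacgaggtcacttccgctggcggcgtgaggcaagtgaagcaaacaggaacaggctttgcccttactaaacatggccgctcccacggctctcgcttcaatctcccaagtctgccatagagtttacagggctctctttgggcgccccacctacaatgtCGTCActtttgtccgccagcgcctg
Cox8a (mm9 chr19:7292027-7292227, minus strand): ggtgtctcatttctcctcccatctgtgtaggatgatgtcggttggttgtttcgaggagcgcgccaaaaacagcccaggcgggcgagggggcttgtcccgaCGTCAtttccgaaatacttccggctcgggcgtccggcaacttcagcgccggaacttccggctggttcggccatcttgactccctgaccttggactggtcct
Atp5g1 (mm9 chr11:95937088-95937288, minus strand): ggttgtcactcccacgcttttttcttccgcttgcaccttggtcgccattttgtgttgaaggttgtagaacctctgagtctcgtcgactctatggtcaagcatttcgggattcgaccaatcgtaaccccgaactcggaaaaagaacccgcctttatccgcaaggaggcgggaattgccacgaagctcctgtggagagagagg
The last 2 are a forskolin-only region next to Uqcr10, a small subunit of complex III, and a vehicle-only region at a second TSS of Atp5d. Neither window held a core.
Uqcr10, forskolin-only (mm9 chr11:4604423-4604623, minus strand): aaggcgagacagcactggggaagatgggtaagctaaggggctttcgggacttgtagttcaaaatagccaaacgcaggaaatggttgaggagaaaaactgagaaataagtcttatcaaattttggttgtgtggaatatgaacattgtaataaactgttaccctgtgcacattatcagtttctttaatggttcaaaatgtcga
Atp5d, vehicle-only (mm9 chr10:79604956-79605156, plus strand): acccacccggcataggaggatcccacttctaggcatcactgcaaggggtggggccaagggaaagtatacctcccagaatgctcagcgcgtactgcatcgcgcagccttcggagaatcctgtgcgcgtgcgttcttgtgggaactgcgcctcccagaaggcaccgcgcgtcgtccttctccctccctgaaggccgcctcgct

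Phospho-CREB regions of all 4 libraries stood at the promoters of most OXPHOS genes, with or without forskolin. Such a region had its centre within 1 kb of a TSS in 70 of 93 OXPHOS genes (75.3%), against 30.4% of all protein-coding genes. Within 10 kb the count was 76 of 93 (81.7%, against 37.5%), and within 100 kb it was 90 of 93 (96.8%, against 67.1%). A region of whatever class lay within 1 kb in 82 of 93 (88.2%, against 44.5%), within 10 kb in 84 (90.3%, against 55.2%) and within 100 kb in 92 (98.9%, against 79.5%). With only the upper 50% of each list by score, 36 OXPHOS genes had a promoter region of all 4 libraries (38.7%, against 18.6% of all genes), and with the 10180 highest peaks of each list it was 46 (49.5%, against 22.4%).

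**Figure D1:**
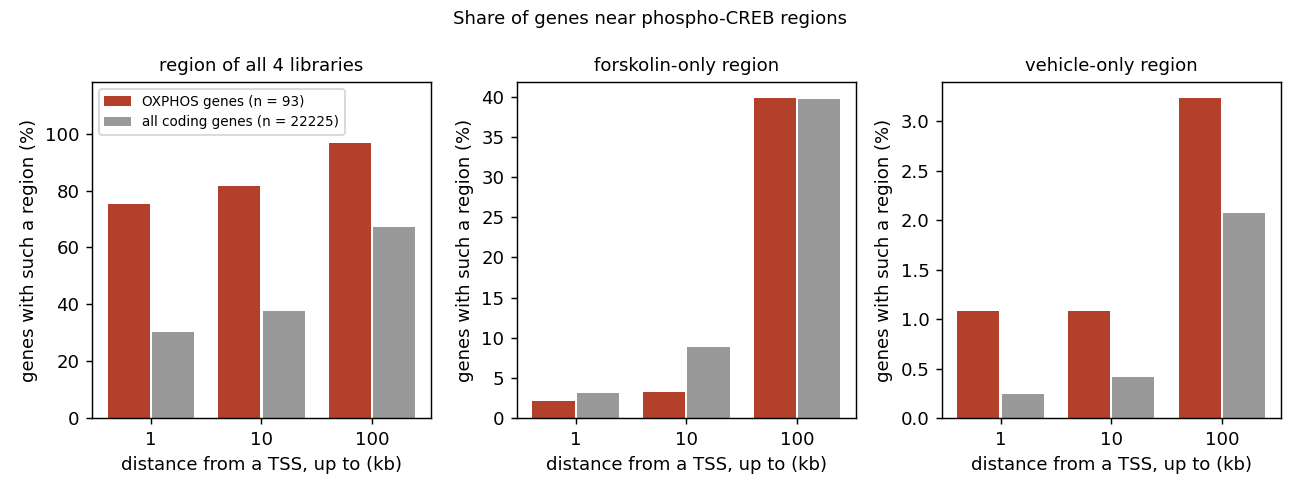
Share of genes (percent, vertical axis) with a region of all 4 libraries, a forskolin-only region or a vehicle-only region within 1, 10 and 100 kb of a TSS, for 93 OXPHOS genes (red) and all 22225 coding genes (grey); the vertical scale differs between panels. For regions of all 4 libraries the red bar is the taller at each distance (75.3% against 30.4% within 1 kb), while for forskolin-only regions it is the shorter within 10 kb (3.23% against 8.88%).

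Counted library by library, 82 and 78 OXPHOS genes had a peak within 1 kb in the forskolin libraries, against 78 and 73 in the vehicle libraries. The same shares over all genes were 43.3% and 39.2% with forskolin, against 38.6% and 32.4% with vehicle. The means were 80.0 ± 2.83 genes with forskolin and 75.5 ± 3.54 genes with vehicle (SD, n = 2 each), and forskolin replicate 2 and vehicle replicate 1 had the same count. The difference was 4.5 genes (exact two-sided permutation test, p = 0.667, where 0.333 is the smallest p that 2 against 2 libraries can give). Swapping the 2 tied libraries gives the same difference, so p could not reach 0.333 here. No arrangement of the libraries gave a larger difference. With 10180 peaks per list the difference changed sign, with 59 and 51 genes in the forskolin libraries, against 71 and 73 in the vehicle libraries (difference −17, p = 0.333 by the same exact test). Over all genes the shares at that length turned the same way, with 27% and 27.2% for forskolin, against 32.5% and 32.4% for vehicle.

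By complex, the largest gap was inside complex IV. Over all coding genes, the shares within 1 kb were 30.4% for a region of all 4 libraries and 44.5% for a region of any class. Of its 11 widely expressed subunits, counting Ndufa4, which is now assigned to complex IV, 10 had a promoter region of all 4 libraries, while none of its 8 paralogs of restricted or inducible expression had any region that close. Complex I had 6 of 7 core subunits, which carry its catalytic centres, and 24 of 29 accessory subunits. Its Ndufaf assembly factors gave 3 of 4. Complex II gave 3 of 4, complex III 6 of 9, and ATP synthase 14 of 15; Cycs was also among them. Taken over all widely expressed subunits and cytochrome c, 64 of 76 promoters had a region of all 4 libraries.

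Complex I spanned nearly the whole range of ranks. Ndufb5, first of the group by its lowest percentile in any list, scored 313.4 and 153.5 in the forskolin libraries and 148.0 and 95.1 in the vehicle libraries, which placed it at or above the 99.5th percentile of each list. Ndufb2 scored 240.4 and 185.2 with forskolin and 108.8 and 82.1 with vehicle, and was at or above percentile 99.2 of each. Within complex I they were followed by the accessory subunits Ndufb6 and Ndufa10 and the core subunit Ndufv1, which binds NADH and FMN; the lowest percentiles of these 3 were 98.7, 98.3 and 98.3. At the other end, by lowest percentile, stood accessory subunits whose regions were called in every library. They were not low in each list: in forskolin replicate 1, Ndufs4, Ndufs6, Ndufc2 and Ndufb8 stood at percentiles 54.5, 55.2, 57.8 and 49.9. Ndufs4, whose loss in mice gives a model of Leigh syndrome, scored 16.2 and 13.1 with forskolin and 9.7 and 3.6 with vehicle, and its last value lay at percentile 0.0 of vehicle replicate 2. Ndufs6 scored 16.5 and 15.1 with forskolin and 8.6 and 4.3 with vehicle, Ndufc2 scored 17.4 and 8.9 with forskolin and 8.1 and 5.4 with vehicle, and Ndufb8 scored 14.8 and 7.6 with forskolin and 11.8 and 9.0 with vehicle. Both ends therefore sat in 1 complex: the median percentile of the 30 complex I subunit promoters was 76.1 and 68.8 with forskolin, against 70.0 and 62.0 with vehicle.

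Within the core of complex I, 6 of the 7 subunits had a merged region called in every library. Ndufs8, which carries iron-sulphur centres on the path to ubiquinone, ranked second to Ndufv1, with percentiles of 93.9 and 93.1 with forskolin and 93.5 and 91.4 with vehicle. Ndufs3, Ndufs1 and Ndufv2 stood lower, and their lowest percentiles were 36.4, 39.0 and 35.6. The exception, Ndufs7, was listed in forskolin replicate 1 at percentile 82.0 and in vehicle libraries 1 and 2 at percentiles 81.0 and 72.1, in a region centred 40 bp from a TSS. Its peak in forskolin replicate 2, at percentile 73.1, was a separate region, chr10:79711674-79711976, centred 41 bp from a TSS, so all 4 libraries listed a peak within 1 kb of this gene, and that of forskolin replicate 2 shared no base with the others. The ATP synthase subunit gene Atp5h had the same call pattern, with percentile 48.1 in forskolin replicate 1 and 9.8 and 24.2 in the vehicle libraries.

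The succinate dehydrogenase genes of complex II, which also belongs to the citric acid cycle, spread from percentile 5.3 (Sdha, forskolin replicate 2) to 93.6 (Sdhc, forskolin replicate 1). Sdhc, a membrane anchor, scored 66.6 and 50.3 with forskolin and 31.1 and 23.8 with vehicle. Sdhb scored 45.6 and 35.1 with forskolin and 25.1 and 14.8 with vehicle, and its CRE lay within the printed window at the TSS. Sdhd, the other anchor, scored 19.6 and 11.0 with forskolin and 9.5 and 8.7 with vehicle. Sdha, the flavoprotein that oxidises succinate, had the lowest values of the 4: scores of 6.9 and 6.9 with forskolin, against 8.4 in vehicle replicate 1 and no peak in vehicle replicate 2. Sdhb, Sdhc and Sdhd were thus called in every library, and Sdha in 3 of 4, at percentiles of 6.4 and 5.3 with forskolin and 26.6 with vehicle.

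Complex III had the fewest uniform calls among the complexes with more than 4 members. Uqcrq, a small subunit known as a ubiquinone-binding protein, led with scores of 108.1 and 75.0 with forskolin and 51.0 and 33.9 with vehicle, followed by Uqcrfs1 with 55.4 and 37.2 with forskolin and 23.2 and 21.1 with vehicle. Cyc1, the haem-bearing cytochrome c1, scored 20.5 and 18.6 with forskolin and 13.0 and 7.6 with vehicle. The large core proteins Uqcrc1 and Uqcrc2 were called in every library, with lowest percentiles of 8.5 and 22.2, both in forskolin replicate 2. In forskolin replicate 1 they stood at 56.5 and 49.0, in vehicle replicate 1 at 39.8 and 45.1, and in vehicle replicate 2 at 46.6 and 24.2. Of the 3 genes short of a region of all 4 libraries, Uqcr11 lacked a peak in vehicle replicate 2, Uqcrb was called in replicate 1 of each treatment, and Uqcr10 was called after forskolin alone, as described below. Cytochrome c itself was high in every list: Cycs scored 262.3 and 121.9 with forskolin and 94.9 and 81.6 with vehicle, at percentiles of 99.8 and 99.0 with forskolin and 99.2 and 99.2 with vehicle.

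In complex IV, Cox8a stood alone near the top of all lists, with scores of 214.6 and 140.4 with forskolin and 93.7 and 81.4 with vehicle. The remaining 9 subunits with a region of all 4 libraries had lowest percentiles between 15.9 (Cox6b1) and 62.5 (Ndufa4). Cox7b, on chromosome X, was called in both forskolin libraries at percentiles 54.5 and 1.5 and in vehicle replicate 1 at 55.0. Cox4i1, the usual isoform of the regulatory subunit 4, shared its region with Cox4nb, a divergent neighbour that encodes an endoplasmic reticulum membrane protein and no complex IV subunit; the starts of the 2 genes lay 178 bp apart and the region's centre lay 444 bp upstream of Cox4i1 but 266 bp downstream of Cox4nb. This region scored 15.0 and 10.3 with forskolin and 10.9 and 8.1 with vehicle. A second region, within Cox4i1 and 287 bp past its start, held a full CRE and was listed in forskolin replicate 2 only, at percentile 12.4.

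ATP synthase gave the most uniform calls among the larger complexes. Atp5d, the delta subunit of the central stalk, scored 263.0 and 166.6 with forskolin and 61.9 and 47.8 with vehicle. Atp5g1 scored 101.0 and 77.1 with forskolin and 41.1 and 34.8 with vehicle, and catalytic Atp5b scored 98.1 and 55.1 with forskolin and 44.5 and 33.0 with vehicle. The 3 genes for the c subunit, Atp5g1, Atp5g2 and Atp5g3, make the same mature protein, and their lowest percentiles were 93.0, 72.7 and 76.5. Atp5k, the e subunit, was the lowest of the 14 called in every library by its lowest percentile (8.7), with scores of 9.5 and 9.6 in forskolin cells and 6.7 and 6.5 in vehicle cells. Atp5o, the stalk protein that confers oligomycin sensitivity, held at least percentile 90.1 in all lists.

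**Figure D2:**
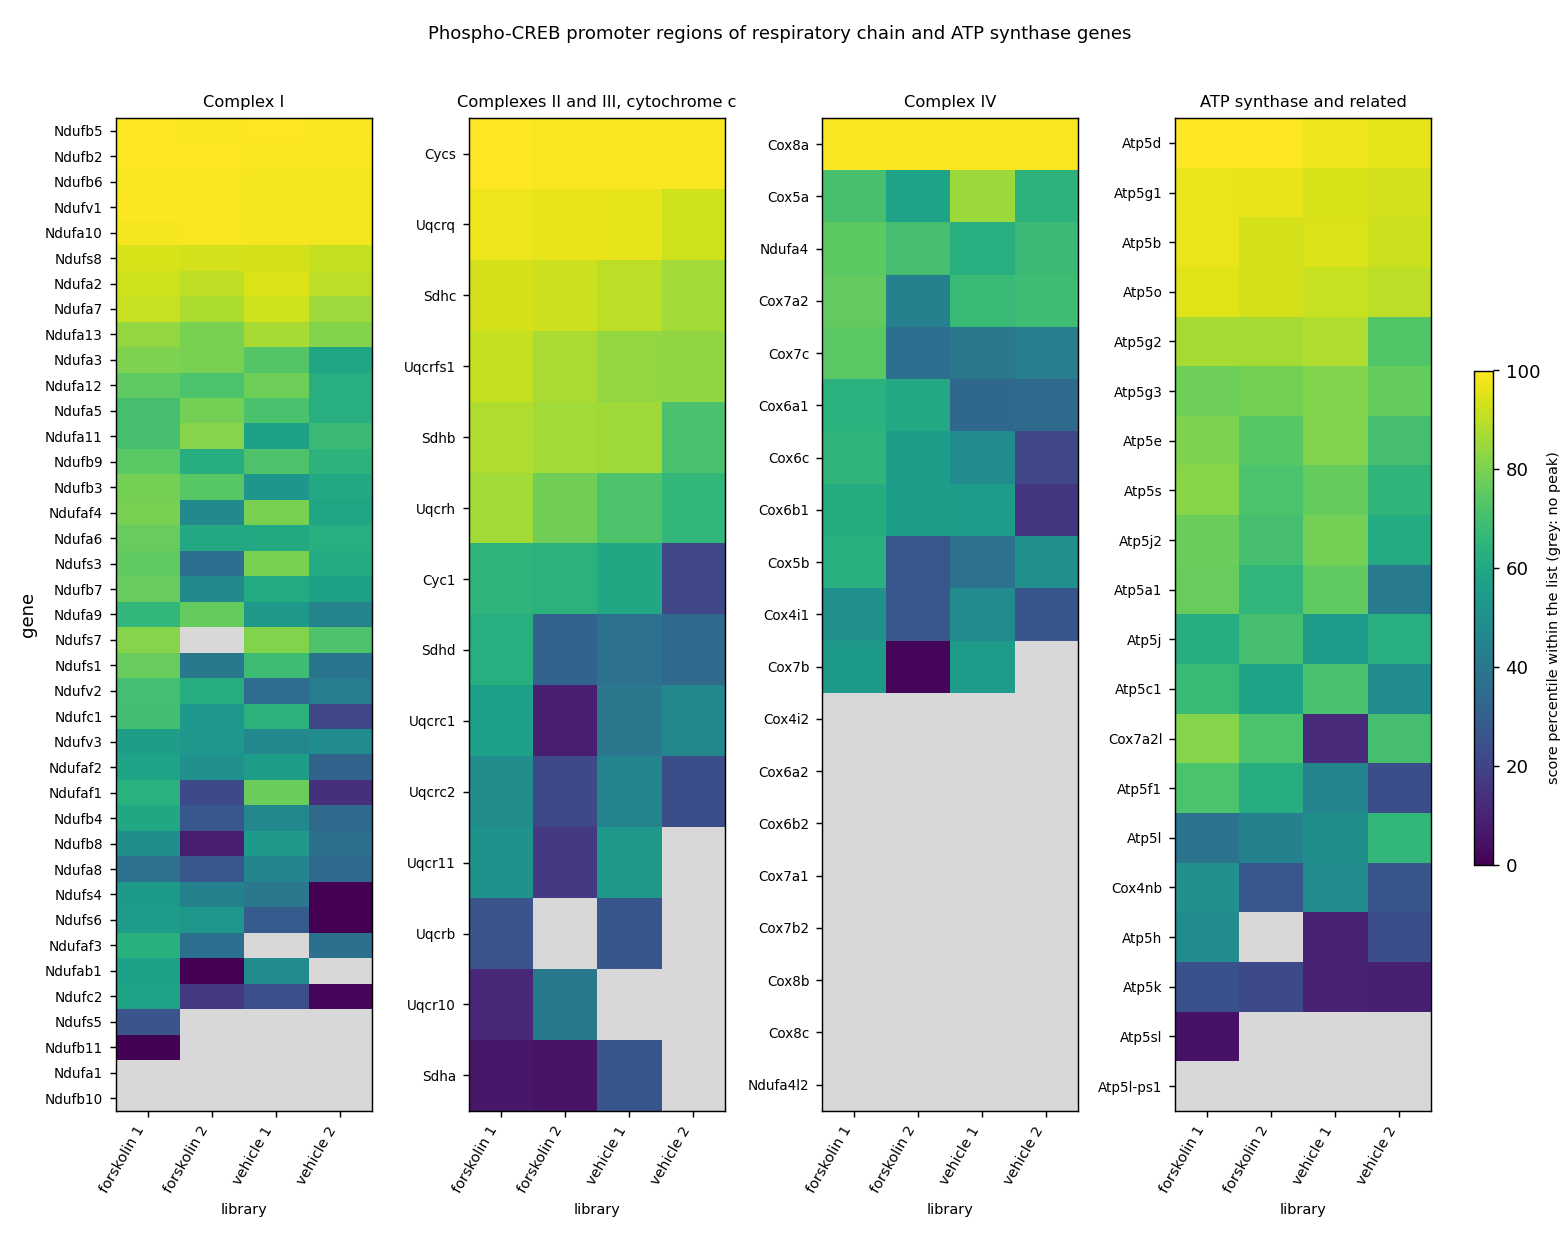
Score percentile of each OXPHOS gene's promoter region within the peak list of each library (colour, 0 to 100; grey, no peak within the region), with genes as rows (1 gene is not drawn) and the 2 forskolin libraries left of the 2 vehicle libraries. Ndufb5, Ndufb2, Cycs, Cox8a and Atp5d are bright in all 4 columns, and the 8 restricted or inducible complex IV paralogs are grey throughout.

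Related genes that matched the names but encode no subunit behaved in several ways. Cox7a2l, a factor for supercomplex assembly, was called in all 4 libraries, at percentiles of 81.7 and 71.8 with forskolin and 12.1 and 70.6 with vehicle, so that only vehicle replicate 1 was low. Atp5s was called in every library with a lowest percentile of 65.6, Atp5sl only in forskolin replicate 1 at percentile 5.0, and Atp5l-ps1, a pseudogene by its symbol that the annotation lists as coding, had no region within 10 kb.

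The paralogs of restricted or inducible expression all lacked a promoter region, as did 55.5% of all coding genes. Cox6a2, Cox7a1 and Cox8b (heart and skeletal muscle forms) had their nearest region of any class 32000, 10884 and 18168 bp from a TSS, whereas their widely expressed counterparts Cox6a1, Cox7a2 and Cox8a had it at 11, 85 and 21 bp. Cox6b2 and Cox8c (testis forms) had it at 13202 and 20557 bp, against 54 bp for Cox6b1 and 21 bp for Cox8a. Cox4i2, a lung and hypoxia-related isoform, had its nearest at 11464 bp, against 287 bp for Cox4i1. Cox7b2 had none within 100 kb, while Cox7b had one at 5 bp. Ndufa4l2, a hypoxia-inducible relative, came nearest with a region of all 4 libraries 1958 bp upstream, against 88 bp for Ndufa4. Testis cytochrome c, Cyct, which is not among the 93, had its nearest at 9634 bp, against 119 bp for Cycs. Counting Cox8a for both Cox8b and Cox8c, all 9 pairs ran in this direction. In the window from 250 bp upstream to 50 bp downstream of the outermost TSS, a CRE core was present in 1 of the 8 restricted paralogs (Cox7b2), against 34 of all 93 OXPHOS genes (36.6%) and 23.4% of all genes. A full CRE was present there in 0 of 8, against 5 of 93 (5.38%) and 2.32%. Expression was not measured here, so whether these genes were transcribed in the cells was not tested.

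**Figure D3:**
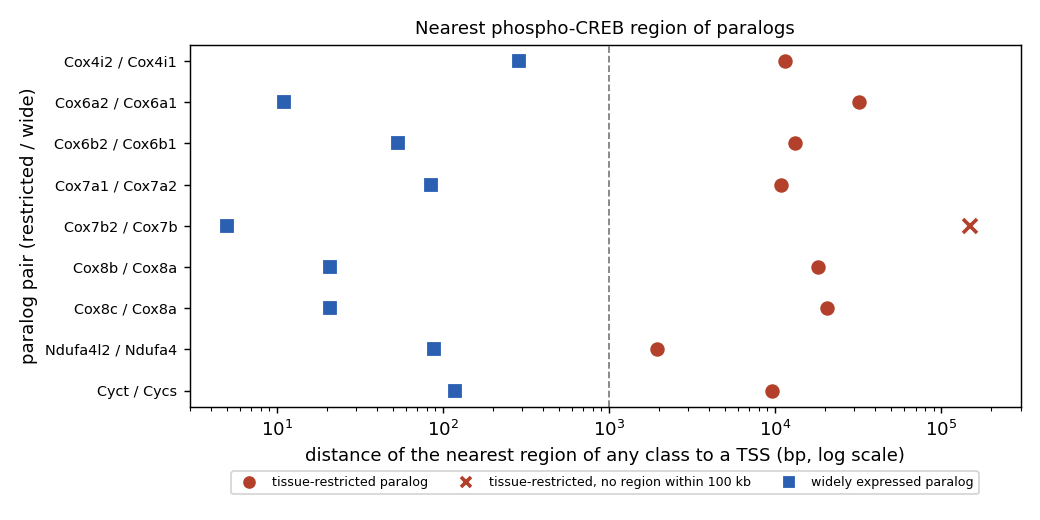
Distance in bp (log scale) from a TSS to the centre of the nearest phospho-CREB region of any class, for the restricted or inducible gene (red circle, or red cross where there was no region within 100 kb) and the widely expressed gene (blue square) of each pair. The dashed line marks 1 kb; every blue square lies left of it and every red symbol right of it, with Ndufa4l2 at 1958 bp the nearest of the red.

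Besides these 8, the genes with no region within 1 kb were Atp5l-ps1, Ndufa1 and Ndufb10, making 11 of 93 (11.8%, against 55.5% of all genes). Ndufb10, a complex I accessory subunit, had a region of all 4 libraries 2678 bp from its nearest TSS, at percentiles of 97.7 and 97.6 with forskolin and 97.6 and 96.9 with vehicle, but this region lay 92 bp upstream of Rps2, a ribosomal protein gene. Ndufa1 is X-linked and had no region within 10 kb. Widely expressed subunit genes on chromosome X (Ndufa1, Ndufb11 and Cox7b) had a promoter region of all 4 libraries in 0 of 3, against 64 of 73 on the autosomes. Among all coding genes the share was also lower on chromosome X, at 13.1% (121 of 927), than on the autosomes, at 31.1% (6626 of 21281). Ndufb11 was listed in forskolin replicate 1 alone, at percentile 0.4. The accessory subunit Ndufs5 was also listed in forskolin replicate 1 alone, at percentile 26.5. Cox7b, Ndufab1 (the mitochondrial acyl carrier protein, part of complex I), Sdha and Uqcr11 lacked a peak in vehicle replicate 2 alone (4.3% of OXPHOS genes, and 4.3% of all genes), and the region of the assembly factor Ndufaf3 lacked vehicle replicate 1, whose peak formed a separate region 360 bp from the TSS at percentile 62.5. With peaks up to 500 bp apart joined, 72 OXPHOS genes had a promoter region of all 4 libraries.

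In the full lists, the share of these genes with a forskolin-only region was near that of all genes within 1 and 100 kb and lower within 10 kb. Within 1 kb there were 2 of 93 genes with one (2.15%, against 3.11% of all genes), within 10 kb 3 (3.23%, against 8.88%) and within 100 kb 37 (39.8%, against 39.7%). These counts move with single libraries, since dropping a library loosens the call. Within 1 kb they came to 5 when forskolin replicate 1 was left out and to 5 when forskolin replicate 2 was (all genes 4.88% and 6.88%). Omitting vehicle replicate 1 gave 6, and omitting vehicle replicate 2 gave 3 (all genes 7.68% and 3.86%). Within 10 kb they came to 7 (7.53%, against 12.3%), 11 (11.8%, against 17.6%), 11 (11.8%, against 15.6%) and 6 (6.45%, against 10.1%) in the same order. Within 100 kb, leaving out forskolin replicate 2 gave 67 (72%, against 59.8%). With the upper 50% of each list, the shares lay on the other side of the background, at 6 genes within 1 kb (6.45%, against 2.38%) and 10 within 10 kb (10.8%, against 5.62%). Within 100 kb that setting gave 32 genes (34.4%, against 26.7%). With 10180 peaks per list the counts were 0 within 1 kb (against 0.684%) and 1 within 10 kb (1.08%, against 2.55%).

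Uqcr10 was the only OXPHOS gene whose best-called region within 1 kb was forskolin-only (1.08%, against 2.29% of all genes). The region chr11:4604304-4604743 (mm9), centred 178 bp upstream of Uqcr10 in the interval shared with the divergent gene Zmat5, which encodes a spliceosomal protein, scored 7.6 and 12.4 (percentiles 11.4 and 40.3). A second forskolin-only region, chr11:4597746-4598123, lay 6122 bp downstream of the Uqcr10 start in intergenic sequence, where Uqcr10 had the nearest coding TSS, and scored 28.9 and 27.5 (percentiles 77.5 and 79.8). Atp5h had a forskolin-only region 852 bp upstream, chr11:115281893-115282364, which lay in an intron of its divergent neighbour Kctd2 and ranked at percentiles 9.7 and 3.0. Ndufa9 had one 3940 bp upstream, chr6:126802946-126803258, at percentiles 47.2 and 53.3, but it sat 14 bp from the start of Akap3, a sperm A-kinase anchoring protein. The promoter region of Ndufa9 itself was called in all 4 libraries, at percentiles 66.2 and 76.3 with forskolin and 53.8 and 44.8 with vehicle.

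Farther out, 52 forskolin-only regions lay within 100 kb of an OXPHOS gene, 48 of them beyond 10 kb. An OXPHOS gene had the nearest coding TSS for 5 of the 52: Uqcr10 (above), Ndufs5 at 14311 bp, Atp5l at 16880 bp, Ndufs4 at 17918 bp upstream and Ndufb4 at 60783 bp upstream. The median percentiles of the 52 were 43.2 and 42.2 in the forskolin libraries, beside 44.6 and 32.0 for all forskolin-only regions. A CRE core lay within 100 bp of the centre in 24, a full CRE in 2 (near Ndufb7 and Uqcr11) and an AP-1 site (TGAGTCA, either strand) in 9. These motifs were not counted over all 5187 forskolin-only regions, so whether the 52 differ from the rest was not tested. The highest-ranked of the 52, picked after its values were seen, was chr10:79628474-79628789, 23516 bp from Atp5d but 99 bp upstream of Cirbp, an RNA-binding protein gene known for induction by cold. It scored 289.3 and 154.2 in the forskolin libraries and held both a core and an AP-1 site.

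Vehicle-only regions were rarer than forskolin-only ones in the full lists, with 1 OXPHOS gene within 1 kb (1.08%, against 0.247% of all genes), the same 1 within 10 kb (1.08%, against 0.414%) and 3 within 100 kb (3.23%, against 2.07%). The gene was Atp5d. Its vehicle-only region chr10:79604877-79605235, in an exon and 4 bp upstream of a downstream TSS of the gene, scored 19.3 and 13.9 in the vehicle libraries (percentiles 78.2 and 68.2) and was listed in neither forskolin library. The region of all 4 libraries with the full CRE, chr10:79603982-79604311, was centred 56 bp upstream of another TSS of Atp5d and was among the few that ranked higher with forskolin. Within 10 kb the count came to 3 genes without forskolin replicate 1 (3.23%, against 1.61%) and to 2 without vehicle replicate 1 (2.15%, against 0.936%). Without vehicle replicate 2 it was also 2, and then lay below the share of all genes (2.15%, against 2.85%). With 10180 peaks per list it was 11 genes (11.8%, against 4.51% of all genes).

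Ranks of the 69 distinct OXPHOS promoter regions of all 4 libraries lay near those of other promoters. Their median percentile within the full lists was 76.1 and 65.9 with forskolin, against 71.2 and 62.6 with vehicle; over all 5984 promoter regions of all 4 libraries it was 78.8 and 73.1 with forskolin, against 75.4 and 64.7 with vehicle. The library values averaged 71.0 ± 7.16 with forskolin and 66.9 ± 6.11 with vehicle (SD, n = 2 each), a difference of 4.12 percentile points that did not exceed the spread (exact two-sided permutation test, p = 0.667). It was −0.95 without forskolin replicate 1 and 0.86 without vehicle replicate 2. Over the full lists, 14 of the 69 stood in the upper 10% of every list (20.3%, against 14.7% of the 5984). List by list, the shares in the upper 10% were 24.6% and 21.7% with forskolin (against 26.7% and 22.4%). With vehicle they were 23.2% and 20.3% (against 22.5% and 15.7%).

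Ranked only among the 8930 regions that all lists share, the medians of the OXPHOS promoters were 47.8 and 43.6 with forskolin, against 54.9 and 58.6 with vehicle. The difference was −11.04 percentile points, with both forskolin libraries below both vehicle libraries (exact two-sided permutation test, p = 0.333, the smallest possible). All promoter regions moved the same way, with 52.8 and 53.7 for forskolin, against 61.1 and 60.9 for vehicle. Gene by gene, both forskolin percentiles lay below both vehicle percentiles in 24 of 69 (34.8%, against 37.6% of all 5984 promoter regions), lay above in 5 (7.25%, against 8.16%) and overlapped in 40. The 5 that lay above were Atp5d, Atp5f1, Atp5g1, Cox6c and Ndufs6. For Atp5d these percentiles were 99.3 and 99.3 with forskolin and 95.7 and 95.9 with vehicle, for Atp5f1, a stator subunit, 39.8 and 39.1 with forskolin and 23.5 and 20.3 with vehicle. Cox6c, a small complex IV subunit, had 29.7 and 31.6 with forskolin and 26.6 and 17.6 with vehicle. Ndufs3, picked as an example of the larger number that lay below, had 46.7 and 14.9 with forskolin and 68.0 and 57.5 with vehicle.

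The share of OXPHOS promoter regions with CRE letters lay near that of all promoter regions, and the regions that held them had higher median ranks in each library. Within 100 bp of the centre and on either strand, the core TGACG was present in 28 of 69 OXPHOS regions (40.6%, against 42.7% of the 5984) and the full CRE, which contains the core, in 6 (8.7%, against 7.32%). Over the whole region the core share was 53.6%, against 54.5%. The 6 regions with a full CRE had median percentiles of 99.3 and 99.0 with forskolin and 97.9 and 97.4 with vehicle. The 22 with the core alone had 86.6 and 80.7 with forskolin and 87.5 and 83.0 with vehicle, and the 41 without it had 70.2 and 55.9 with forskolin and 56.2 and 44.8 with vehicle. The same order held over all promoter regions: with a full CRE (438 regions) the medians were 95.1 and 93.9 with forskolin and 92.7 and 90.6 with vehicle, and without a core (3426 regions) they were 71.3 and 62.4 with forskolin and 68.2 and 52.2 with vehicle. Of the 10 OXPHOS regions with the highest lowest percentile (Ndufb5, Cox8a, Ndufb2, Cycs, Ndufb6, Ndufa10, Ndufv1, Atp5d, Atp5g1 and Uqcrq), 9 held a core and 4 a full CRE; Atp5g1 was the exception. Among the 5 lowest (Ndufb8, Uqcrc1, Ndufc2, Ndufs6 and Ndufs4), Uqcrc1 alone held a core. A match of letters is a description of the sequence and no evidence of a bound site.

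**Figure D4:**
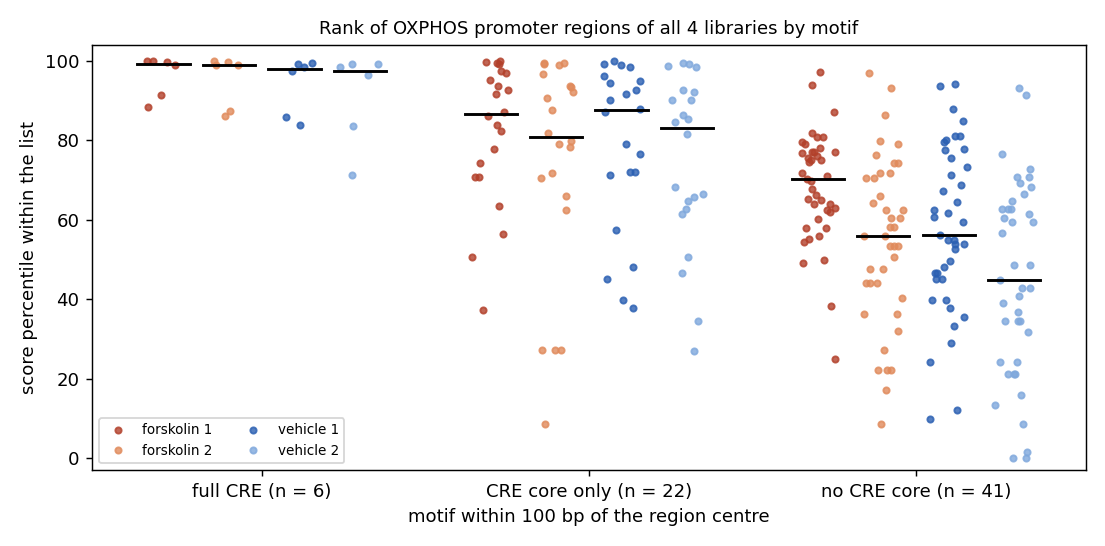
Score percentile within each library's list (vertical axis) of the 69 OXPHOS promoter regions of all 4 libraries, split by the motif within 100 bp of the centre; each point is a region and each bar a median, with forskolin libraries in red shades left of the vehicle libraries in blue shades. The medians descend from full CRE (99.3 to 97.4 over the 4 libraries) through core only (87.5 to 80.7) to no core (70.2 to 44.8).

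Other promoter motifs were counted in the same windows on both strands. CCAAT was present in 17 of 69 OXPHOS regions (24.6%, against 35% of the 5984), the GC box GGGCGG in 28 (40.6%, against 51.9%) and the ETS motif CCGGAAG, of the kind bound by the respiratory gene regulator GABP, in 15 (21.7%, against 20.4%). The NRF1 palindrome, named for a factor known from respiratory gene promoters, was present in 3 (4.35%, against 1.34%), those of Atp5g2, Atp5k and Uqcrc1. AP-1 sites were present in 3 (4.35%, against 2.36%) and TATAAA in 2, those of Atp5l and Ndufa7 (2.9%, against 2.76%). Median GC content of the windows was 61.7% in the OXPHOS regions and 63.2% in all promoter regions.

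The OXPHOS regions were centred close to the TSS. Over the 70 genes the median distance between centre and TSS was 45.5 bp, beside 73.0 bp over all 6747 genes with a promoter region of all 4 libraries. The centre lay within 150 bp in 60 of 70 (85.7%, against 73.4%), the region covered a TSS in 61, and centres fell upstream in 39 and downstream in 30, with Ndufb6 at the TSS itself. The farthest was Ndufa13, also known as GRIM-19, at 937 bp downstream. In the bin from 0 to 100 bp downstream lay 38.6% of the OXPHOS centres, against 20.6% over the 6747 genes. In the 100 bp just upstream the shares were 34.3%, against 39.4%. Where a core was present (29 genes, Cox4i1 and Cox4nb sharing one), it lay a median of 20.0 bp from the centre, within 50 bp in 20, and upstream of the TSS in 21. Counts over all genes are not given for TSS cover and core position, so those values are a description. Upstream of a TSS, a protein-coding gene on the other strand started within 1 kb in 22 of the 70 (31.4%, against 21.8% of the 6747). Examples are Ndufs1 with the translation elongation factor gene Eef1b2 at 3 bp, Ndufa7 with the ribosomal protein gene Rps28 at 29 bp and Sdhd with the mitochondrial import gene Timm8b at 52 bp. For such pairs a region cannot be assigned to one gene.

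**Figure D5:**
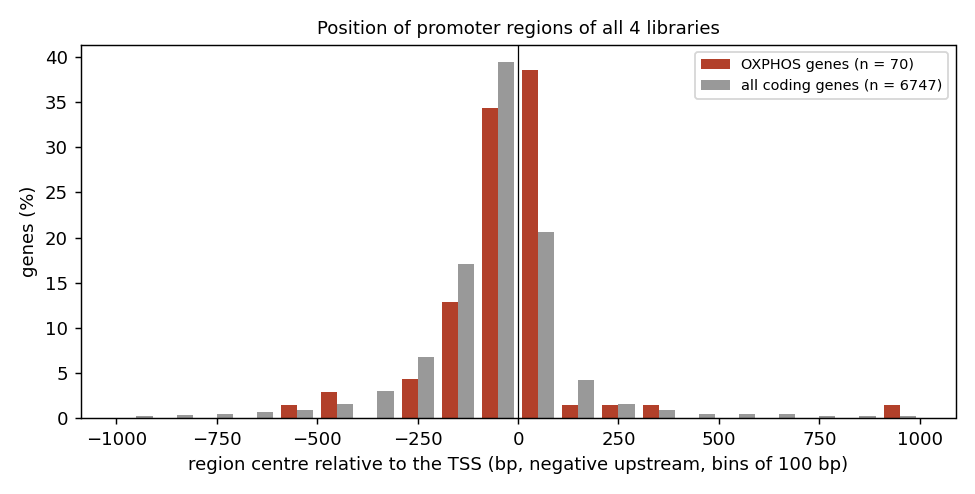
Position of the region centre relative to the TSS (bp, negative upstream, bins of 100 bp) as a percent of genes, for the 70 OXPHOS genes with a promoter region of all 4 libraries (red) and all 6747 such coding genes (grey). The tallest red bar is the 100 bp bin just downstream of the TSS (38.6%), and the tallest grey bar the 100 bp bin just upstream (39.4%). Of the 70 OXPHOS centres, 60 lie within 150 bp.

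Genes that serve the same pathway without belonging to the 93 had similar calls. As background for the lists below, 30.4% of all coding genes had their promoter called in every library. A forskolin-only region lay within 10 kb of 8.88% of them. Of 26 other assembly and maturation factors, 23 had a promoter region of all 4 libraries, among them Foxred1 (a complex I assembly factor, percentiles 99.7 and 99.5 with forskolin, 99.5 and 98.9 with vehicle), Cox18 (98.7 and 98.5 with forskolin, 98.8 and 98.0 with vehicle) and Atpaf2 (97.9 and 97.6 with forskolin, 98.5 and 98.1 with vehicle). A forskolin-only region lay within 10 kb of 2 of the 26: Hccs, which attaches haem to cytochromes c, and Sdhaf2, which helps attach flavin to Sdha and whose promoter region itself was forskolin-only, 141 bp past the TSS at percentiles 66.7 and 58.2. Of 13 citric acid cycle genes 11 had a promoter region of all 4 libraries and none had a forskolin-only region within 10 kb. Among these, Ogdh, of the oxoglutarate dehydrogenase complex, held a full CRE at percentiles of 98.2 and 98.9 with forskolin and 97.0 and 97.3 with vehicle. Whether the forskolin-only counts of these lists, 2 of 26 and 0 of 13, differ from the share of all genes was not tested. Dlst and Suclg2 lacked a peak in vehicle replicate 2. By contrast, 0 of the 7 pre-osteoblast markers had a promoter region of all 4 libraries, and 5 of 7 had a forskolin-only region within 10 kb (all genes 8.88%), with those of Runx2 and Alpl within 1 kb of a TSS. Of the other cell types, 1 of 4 fat cell markers (Adipoq) and 1 of 4 cartilage markers had one within 10 kb, that of Sox9 being 190 bp from its TSS at percentiles 80.3 and 65.9, and 0 of 4 muscle and 0 of 3 blood cell markers did. The OXPHOS share within 10 kb, for comparison, was 3 of 93. All lists were picked with results of these data known, so the contrast between them is a description.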

How the data were processed

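The deposited data were 1 peak list per library, so the authors called peaks in each library and not on pooled reads; the labels name an input library that was not used here. Bowtie, HOMER and build mm9 are given by the submitters' processing notes, without versions; peak thresholds are not given there. All peaks of a list have 1 width, and column 5 is a score of the authors whose definition the labels do not give, so it only ranked peaks within a list. Peaks sharing 1 bp were merged in Python 3.11.15 (numpy 2.4.6), and region centres were measured to every transcript start of GENCODE M1, which uses the same build. Gene records sharing symbol and chromosome were joined, which made 93 genes of 94 records. A gene's promoter region is the one within 1 kb called in the most libraries, then the nearest. Motifs were sought within 100 bp of the centre.

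Groups and replicate numbers came from sample titles. Libraries were compared by exact permutation over 6 arrangements (scipy 1.17.1), which measures only the spread between these libraries. Region classes and distances were checked on simulated data. The genes, the lists and the rule for naming genes were chosen with earlier results of these data known. Named genes were those with a forskolin-only or vehicle-only region within 10 kb, the 10 highest and 5 lowest by lowest percentile, those with no region within 1 kb or with a full CRE, the paralog pairs, Cycs, Cyc1 and the Sdh genes; the others named in the text were picked after their values were seen, as examples of their complex. Cox14, Timmdc1 and Spi1 were not matched in the annotation used. The alternatives tried were another overlap, joined peaks, shorter lists, another distance or TSS set, other motif windows, another ranking set and leaving out each library. Values of 2 genes that are in the counts are not reported here.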

Additional observations from a re-analysis of the deposited data

How the results depend on the processing

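The forskolin minus vehicle difference in genes with a peak within 1 kb, 4.5, was −17 with lists cut to 10180 peaks and 2 to 7 on leaving out each library in turn. The difference in median percentile, 4.12, was −11.04 when ranked among shared regions, and −0.95 to 9.18 on leaving out a library (−0.95 without forskolin replicate 1). Promoters with a region of all 4 libraries, 70 genes, fell to 36 with the upper 50% of each list and to 46 with equal lists, and stayed between 65 and 74 under the other alternatives run. In the same 2 settings, forskolin-only counts were 6 and 0 within 1 kb and 10 and 1 within 10 kb, and genes with no region within 1 kb were 21 and 17 (main count 11; 11 to 14 without a library). Equal lists gave 12 forskolin-only genes within 100 kb (12.9%, against 15.1% of all genes) and 11 vehicle-only genes within 10 kb (11.8%, against 4.51%). Requiring 50% overlap gave 2 vehicle-only genes. Without a library, forskolin-only counts were 3 to 6 within 1 kb, 6 to 11 within 10 kb and 42 to 67 within 100 kb, and vehicle-only counts 1 to 3. The forskolin-only shares at 100 kb were 49.5% and 72% without forskolin replicates 1 and 2 (all genes 47.7% and 59.8%). Without vehicle replicates 1 and 2 they were 54.8% and 45.2% (all genes 52.9% and 42.5%). The core share was 53.6% over the whole region.

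With replicate numbers as a replicate block the differences were again 4.5 and 4.12, each with p = 0.5 by exact sign-flip test, the smallest that pairing 2 numbers allows. Same-numbered deviations correlated at r = 0.13 over 8930 regions, and with 2 pairs the numbers do not establish pairing. Peak lists carry no read depth, so a missing call, above all in the short list of vehicle replicate 2, may be a matter of threshold; this was not tested. The cause of the changes with list length was not tested.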
